A study of Homo sapiens with 8 samples.

Results

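The genes described here encode the SMN complex: SMN1, GEMIN2, DDX20, GEMIN4, GEMIN5, GEMIN6, GEMIN7, GEMIN8 and STRAP. They are 9 of the 20046 genes that the platform annotation names singly, and they were measured by 15 probes. The set was selected on their place in the complex and on the fall of GEMIN4 and GEMIN6 at 46 °C, so the heat responses of these 2 genes are given as a description with no test. The other 7 members were chosen by their place in the complex, though with earlier results of these data known. Total RNA of 2 human ovarian cancer lines, A2780 and SKOV3, had been hybridised to Illumina BeadChips. Each line was kept at 37 °C as the control or brought to 46 °C as the hyperthermia treatment. Each of the 4 groups held 2 samples, 8 arrays in all, and no agent other than temperature is named. The protocol text speaks of RNA from tissues although the samples are named as cell lines. How long the cells were heated, when they were harvested and whether the 2 samples in a group were grown apart is not stated, so p-values measure only the spread between these samples, which may be technical.

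The SMN complex loads a ring of Sm proteins onto small nuclear RNAs in the cytoplasm, a step without which spliceosomal snRNPs do not form. SMN and GEMIN2 are its core, GEMIN5 recognises the RNA, the helicase DDX20 (Gemin3) is paired with GEMIN4, and GEMIN6, GEMIN7, GEMIN8 and STRAP (unrip) form a peripheral arm. In the nucleus the complex gathers in gems next to Cajal bodies. Loss of SMN1 causes spinal muscular atrophy.

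The median probe signal ran from 114 to 144 over the arrays, and 36.9% to 41.9% of the 47231 probes lay above the background of their array. A2780 control 2 was the brightest array: its upper quartile was 317, while the other 7 arrays had 181 to 243. The heat labels were borne out by HSPA6, a heat-inducible HSP70 gene, which was higher by 7.26 ± 0.13 (SE) on the log2 scale at 46 °C in A2780 and by 7.14 ± 0.13 in SKOV3. The line labels were not fully borne out. ERBB2, which is amplified and overexpressed in SKOV3, had normalized log2 values of 8.97 to 9.49 in A2780 and 9.25 to 9.50 in SKOV3 (difference at 37 °C 0.10 ± 0.13, adjusted p = 0.629). Of 10 epithelial and ovarian tumour markers, 3 (KRT18, EPCAM and ERBB2) were above background on all 4 SKOV3 arrays and 1 (ERBB2) on all 4 A2780 arrays, and KRT7, KRT8, CDH1, PAX8, WT1 and MUC16 were above it on none. All 5 fibroblast markers were above background on every A2780 array and none of them on every SKOV3 array. The summed linear level of these 5 was 10088 to 10761 in A2780 and 363 to 403 in SKOV3. At 37 °C the log2 differences, SKOV3 minus A2780, were -5.88 (DCN), -5.87 (LUM), -2.45 (COL1A2), -0.67 (PDGFRA) and -0.04 (COL1A1). The summed level of the 10 epithelial markers was 1289 to 1324 at 37 °C and 1143 to 1212 at 46 °C in A2780, and 1630 to 1680 against 1527 to 1598 in SKOV3. Most of the 10 add only background to these sums: 8 were above it on no A2780 array and 6 on no SKOV3 array. The names A2780 and SKOV3 below are therefore those of the labels, and the part of other cells or of exchanged lines in the differences between them was not tested. Of 5 leukocyte markers on the array, 1 (CD68) was above background on all arrays of each line, and of 4 endothelial markers none was. Of the 5 leukocyte markers, 4 were above background on no A2780 array and 3 on no SKOV3 array. The summed leukocyte level was 1567 to 1639 at 37 °C and 1645 to 1843 at 46 °C in A2780, and 1322 to 1328 against 1677 to 1765 in SKOV3. The part of these shifts in the changes at 46 °C below was not tested.

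The promoters of the 2 genes that fell are shown because they moved in the same direction in both lines. Each is given 5′ to 3′ on the gene's strand, from 250 bases before to 50 after the annotated start, from RefSeq on GRCh38.p14. Capitals mark every match to the motifs searched. GEMIN4 lies at chr17:752215-752514 on the minus strand and GEMIN6 at chr2:38777960-38778259 on the plus strand.
GEMIN4: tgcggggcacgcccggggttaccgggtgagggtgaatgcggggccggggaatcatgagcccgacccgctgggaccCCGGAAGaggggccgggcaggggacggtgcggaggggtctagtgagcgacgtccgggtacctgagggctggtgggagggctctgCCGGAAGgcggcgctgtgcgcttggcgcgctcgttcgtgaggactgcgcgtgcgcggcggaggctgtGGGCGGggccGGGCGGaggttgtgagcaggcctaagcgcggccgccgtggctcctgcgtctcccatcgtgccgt
GEMIN6: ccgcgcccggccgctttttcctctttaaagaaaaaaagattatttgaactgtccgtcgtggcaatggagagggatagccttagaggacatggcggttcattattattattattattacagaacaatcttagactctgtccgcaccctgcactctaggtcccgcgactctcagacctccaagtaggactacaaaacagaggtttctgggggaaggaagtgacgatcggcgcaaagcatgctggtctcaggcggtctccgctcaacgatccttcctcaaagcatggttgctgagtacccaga
Motifs were searched on both strands. Heat-shock elements were taken as GAANNTTC (head to head) or TTCNNGAA (tail to tail). The ETS core was CCGGAAG, the GC box was GGGCGG, the CCAAT box was CCAAT and the E-box was CACGTG. The marked matches do not overlap each other. The GEMIN4 window held 2 ETS cores and 2 GC boxes and was 74% G and C. The GEMIN6 window held none of the letters searched and was 49.7% G and C. Among the 35116 promoter windows of the same length, 10.3% held an ETS core, 45% a GC box, 34.6% a CCAAT box and 7.26% an E-box. The heat-shock elements were in 6.77% (head to head) and 7.74% (tail to tail) of those windows and in none of the 10 windows of the 8 members with a promoter in the table. SMN1 was the member without an entry.

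Levels below are normalized log2 intensities of the brightest probe of a gene, and changes are differences between the means of 2 arrays a group, each given with ± the SE that limma estimated. Rose and fell are used where the adjusted p was under 0.05, except for GEMIN4 and GEMIN6 at 46 °C. A bulk measurement cannot tell fewer cells from less RNA per cell.

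GEMIN4, the partner of the helicase DDX20, was lower at 46 °C in both lines. In A2780 its level was 10.90 and 10.95 at 37 °C and 9.52 and 9.54 at 46 °C. In SKOV3 it was 11.03 and 10.90 at 37 °C and 9.96 and 9.78 at 46 °C. Every array at 46 °C lay below every array at 37 °C, whichever the line. The change was -1.40 ± 0.13 in A2780 and -1.10 ± 0.13 in SKOV3, which left 38.0% and 46.8% of the 37 °C intensity. The deposited signals, before any correction, were 2289 and 3060 against 781 and 669 in A2780 and 1925 and 1657 against 917 and 841 in SKOV3. Ranked from the most lowered of the 14189 genes tested, GEMIN4 was number 7 in A2780 and number 15 in SKOV3.

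GEMIN6, which pairs with GEMIN7 in an Sm-like fold, was also lower in both lines. Under the main settings the fall was larger in SKOV3, by a size that depended on the scaling, as given below. Its level in A2780 was 11.14 and 11.11 at 37 °C and 10.28 and 10.23 at 46 °C. In SKOV3 it was 10.78 and 10.70 at 37 °C and 9.19 and 9.39 at 46 °C. The 4 groups did not overlap at any point, and their order from high to low was A2780 at 37 °C, SKOV3 at 37 °C, A2780 at 46 °C and SKOV3 at 46 °C. The change was -0.87 ± 0.13 in A2780 and -1.45 ± 0.13 in SKOV3, leaving 54.7% and 36.7% of the intensity. The deposited signals were 2696 and 3415 against 1326 and 1058 in A2780, and 1627 and 1466 against 554 and 654 in SKOV3. GEMIN6 was number 53 from the most lowered gene in A2780 and number 3 in SKOV3. GEMIN4 and GEMIN6 each had 1 probe, above background on all 8 arrays.

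**Figure D1:**
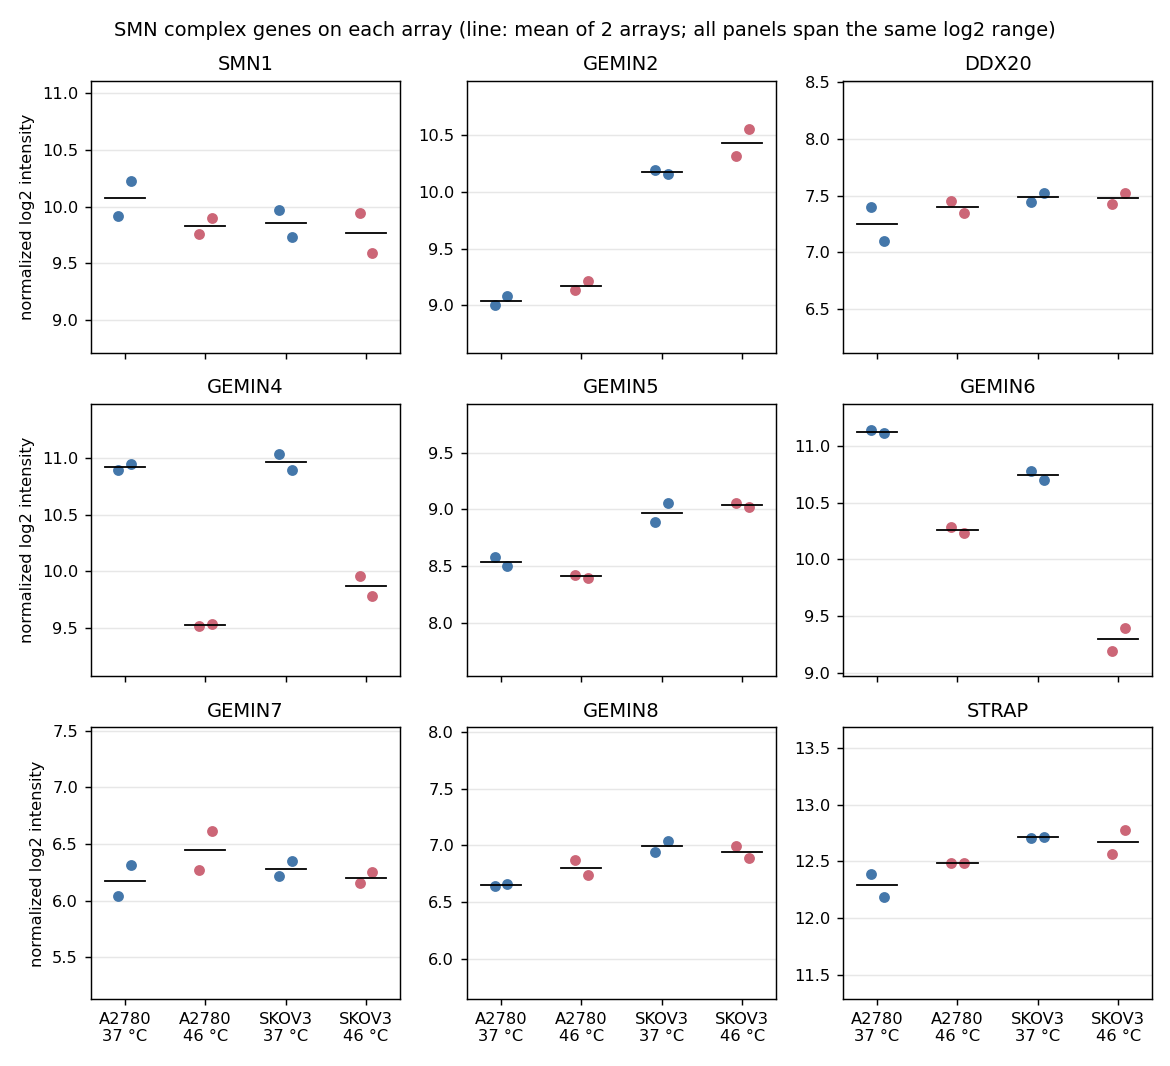
Normalized log2 intensity (y axis) of the 9 SMN complex genes on each of the 8 arrays (points, blue at 37 °C and red at 46 °C), by line and temperature (x axis), with the mean of 2 arrays as a line. GEMIN4 and GEMIN6 are lower at 46 °C in both lines, from 10.92 to 9.53 and from 11.13 to 10.26 in A2780, and GEMIN2 is higher in SKOV3 at both temperatures.

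Of the other 7 members, GEMIN7 was mostly not above background and is described on its own below. The remaining 6, read at their brightest probe, did not pass the limma test at 46 °C in either line. Over all genes 2.23% were called higher and 2.29% lower in A2780, and 1.50% and 1.68% in SKOV3, the shares against which a count of 0 of 6 is read. At the brightest probe none of the 6 had an unadjusted p under 0.05 (lowest 0.151 in A2780 and 0.062 in SKOV3), and the lowest adjusted p was 0.475 and 0.364. In A2780 their changes lay between -0.24 and 0.20, with a median of 0.14 against -0.01 over all genes. In SKOV3 they lay between -0.08 and 0.26, with a median of -0.02, as over all genes. The 95% intervals of the 6 spanned -0.58 to 0.48 in A2780, and those in SKOV3 spanned -0.42 to 0.54; changes within them could not be resolved with 2 arrays a group. With median scaling, SMN1 (-0.71, adjusted p = 0.0127) and GEMIN5 (-0.69, adjusted p = 0.00543) also passed as lower in A2780, where the median of all genes moved to -0.28. That setting called 4395 of 14183 genes lower in A2780. Relative to the median of all genes, SMN1 was at -0.43 and GEMIN5 at -0.41 there, against -0.23 and -0.12 under the main settings.

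**Figure D2:**
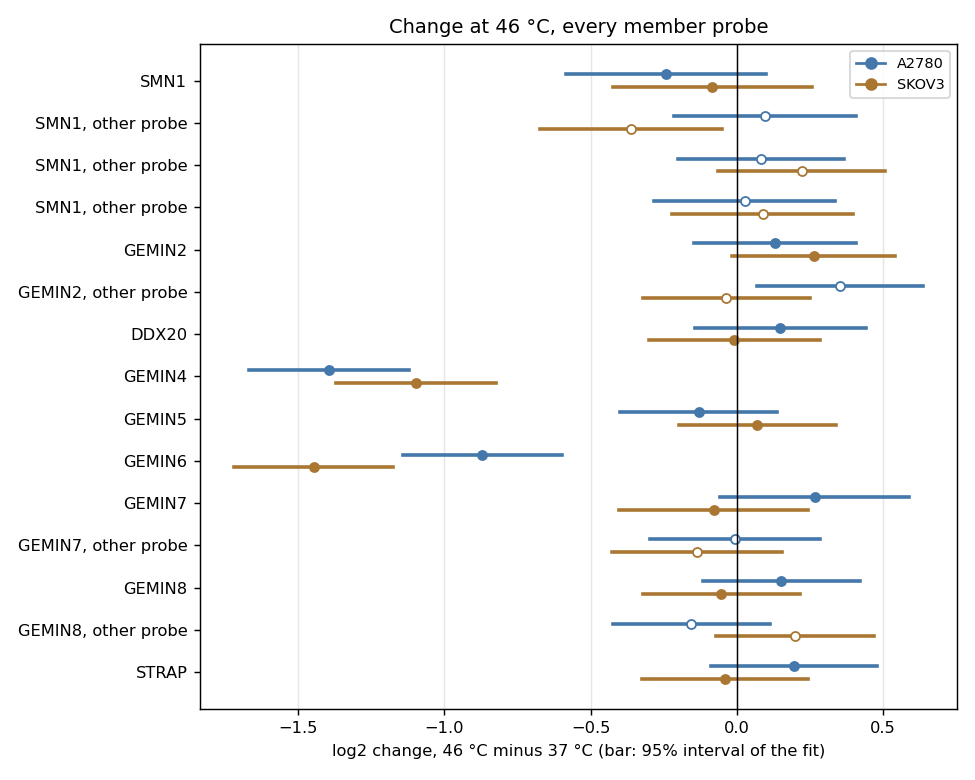
Change in log2 intensity at 46 °C (x axis) at each of the 15 probes of the members (y axis) in A2780 (blue) and SKOV3 (brown), with the 95% interval of the fit as a bar and open circles for probes other than a gene's brightest. GEMIN4 (-1.40 and -1.10) and GEMIN6 (-0.87 and -1.45) stand apart from the other members, whose brightest probes lie between -0.24 and 0.27. The 0.27 is that of GEMIN7, whose probe was mostly not above background and could not show a fall.

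SMN1, the scaffold of the complex, changed by -0.24 ± 0.16 in A2780 (adjusted p = 0.475) and by -0.08 ± 0.16 in SKOV3 (adjusted p = 0.868). Its values were 9.92 and 10.23 against 9.76 and 9.90 in A2780, and 9.97 and 9.74 against 9.95 and 9.59 in SKOV3. A further SMN1 probe above background on all arrays gave 0.10 ± 0.15 in A2780 and -0.36 ± 0.15 in SKOV3, with adjusted p over all 47231 probes of 0.889 and 0.376 (unadjusted 0.525 and 0.0253). The remaining 2 SMN1 probes were not above background on any array. SMN2 is a nearly identical copy whose transcripts can share these probes. Its own probe, which is not a member, changed by 0.24 ± 0.13 in A2780 and -0.01 ± 0.13 in SKOV3 (adjusted p = 0.384 and 0.98).

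GEMIN2, the close partner of SMN that holds the Sm proteins, changed by 0.13 ± 0.13 in A2780 (adjusted p = 0.659) and by 0.26 ± 0.13 in SKOV3 (adjusted p = 0.364). Its second probe, also above background on all arrays, placed the larger value in the other line, with 0.35 ± 0.14 in A2780 (unadjusted p = 0.0178, adjusted p over all probes 0.245) and -0.04 ± 0.14 in SKOV3 (adjusted p = 0.973). DDX20, the helicase bound by GEMIN4, had values of 7.40 and 7.10 against 7.45 and 7.35 in A2780 and 7.45 and 7.52 against 7.43 and 7.52 in SKOV3. These correspond to changes of 0.15 ± 0.14 (adjusted p = 0.627) and -0.01 ± 0.14 (adjusted p = 0.988), and both pairs of groups overlapped. GEMIN5, the RNA-binding member, changed by -0.13 ± 0.12 and 0.07 ± 0.12 (adjusted p = 0.649 and 0.856).

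GEMIN7, the partner of GEMIN6, could not be followed. Its brighter probe was above background on 1 of the 8 arrays, A2780 hyperthermia 2, and its other probe on none. The brighter probe passed the filter on dim probes narrowly, with a mean of 6.28 against 6.16 for the filter. GEMIN8, which links GEMIN6 and GEMIN7 to SMN, changed by 0.15 ± 0.12 in A2780 and -0.05 ± 0.12 in SKOV3 (adjusted p = 0.584 and 0.901). Its signals at this probe, 136 to 192, were above background on all arrays but close to the background limits of 123 to 154. Its other probe gave -0.16 and 0.20, opposite in sign to the first in both lines. It was above background on 6 arrays, and on neither of the A2780 arrays at 46 °C. STRAP, the WD-repeat protein of the arm, changed by 0.20 ± 0.13 and -0.04 ± 0.13 (adjusted p = 0.484 and 0.933).

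**Figure D3:**
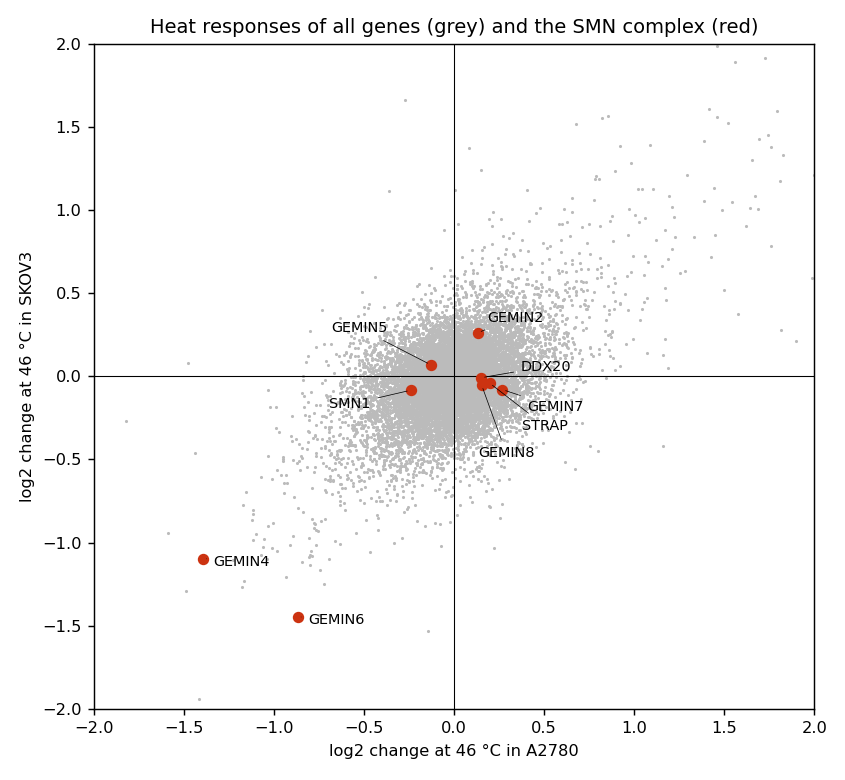
Log2 change at 46 °C in A2780 (x axis) and SKOV3 (y axis) for the genes tested (grey points) with the 9 SMN complex genes in red. GEMIN4 and GEMIN6 lie at the lower left edge of all genes and the other 7 members within the central cloud. GEMIN7 was mostly not above background, so its place says little about a change. Outside the axes lie 46 genes with a change beyond 2 in either line.

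The response of SKOV3 minus that of A2780 tested whether the lines differed. For GEMIN4 this difference was 0.30 ± 0.18 and for GEMIN6 it was -0.58 ± 0.18, given without a test because the rule used these responses. These sizes depended on the scaling. With median scaling the differences were 0.75 and -0.17, and without normalization between arrays 0.87 and -0.05, while the median of all genes moved to 0.27 and 0.38. Relative to that median they were 0.48 and -0.44 under both. At their brightest probes none of the 6 other members above background passed this test (limma, adjusted p from 0.746 to 0.872, none with an unadjusted p under 0.05), where 0.0987% of all genes were called. Their differences lay between -0.24 and 0.20, with 95% intervals spanning -0.64 to 0.64. The second SMN1 probe gave -0.46 ± 0.21 (unadjusted p = 0.0426, adjusted p over all probes 0.657).

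Between the lines the clearest member was GEMIN2, which was higher in SKOV3. At 37 °C its values were 9.01 and 9.08 in A2780 and 10.19 and 10.16 in SKOV3. At 46 °C they were 9.13 and 9.21 against 10.32 and 10.55. All 4 SKOV3 arrays lay above all 4 A2780 arrays. The difference was 1.13 ± 0.13 at 37 °C (adjusted p = 1.49e-05) and 1.26 ± 0.13 at 46 °C (adjusted p = 5.45e-06), 2.19-fold and 2.40-fold. The second GEMIN2 probe gave 1.75 ± 0.14 and 1.36 ± 0.14 (adjusted p over all probes 1.52e-08 and 5.78e-07).

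At 37 °C, 3 members were higher in SKOV3 and 1 was lower, where 15.6% of all genes were called higher and 13.8% lower. The median difference of the 8 members above background was 0.29 against 0.01 over all genes. Beside GEMIN2, GEMIN5 was higher by 0.43 ± 0.12 (adjusted p = 0.0183) and STRAP by 0.42 ± 0.13 (adjusted p = 0.0268), and GEMIN6 was lower by 0.39 on the log2 scale (change -0.39 ± 0.13, adjusted p = 0.0337). GEMIN8 at 0.34 ± 0.12 (adjusted p = 0.0552), DDX20 at 0.23 ± 0.14 (adjusted p = 0.233) and SMN1 at -0.22 ± 0.16 (adjusted p = 0.349) did not pass. SMN1 passed as lower in SKOV3 with median scaling (-0.73, adjusted p = 0.00647) and without normalization (-0.85, adjusted p = 0.00405). Those settings called 4815 and 5470 of 14183 genes lower. Relative to the median of all genes, SMN1 was at -0.50 under both, against -0.23 under the main settings. The second SMN1 probe above background gave 0.12 ± 0.15 under the main settings (adjusted p over all probes 0.75). GEMIN8 passed with a normexp offset of 16 (0.0416) and a filter at the 60th percentile (0.0478). Its other probe gave -0.08 ± 0.13 under the main settings (adjusted p over all probes 0.819). For GEMIN4 the difference at 37 °C was 0.04 ± 0.13 (adjusted p = 0.853, 95% interval -0.23 to 0.32). It passed as lower in SKOV3 with median scaling (-0.45) and without normalization (-0.57), with a lowest adjusted p of 0.0233. The median of all genes then moved to -0.23 and -0.35.

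The 4 calls at 37 °C each depended on a setting or an array. GEMIN2 went to 0.57 with median scaling and lost its call without normalization between arrays (0.45, adjusted p = 0.0835). With median scaling, which moved the median of all genes to -0.23, GEMIN5 and STRAP turned to -0.11 and -0.035, though they stayed 0.12 and 0.19 above that median. With a normexp offset of 16, GEMIN6 (-0.39, adjusted p = 0.0832) and STRAP (0.43, adjusted p = 0.0713) lost their calls. Of the 4 calls, 1 was left when A2780 control 2 was dropped, 1 when SKOV3 control 2 was, and 2 when SKOV3 control 1 was. GEMIN6 lost its call without any 1 of the 4 control arrays or either A2780 hyperthermia array (adjusted p = 0.0504 to 0.177).

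At 46 °C, of the 8 members above background, 2 were higher in SKOV3 and 1 was lower, against 12.3% and 11.8% of all genes. GEMIN5 values were 8.42 and 8.40 in A2780 and 9.05 and 9.02 in SKOV3, a difference of 0.63 ± 0.12 (adjusted p = 0.00197). GEMIN6 was lower in SKOV3 by 0.96 on the log2 scale (change -0.96 ± 0.13, adjusted p = 6.38e-05), from the values given above. GEMIN4 was higher by 0.34 ± 0.13 and missed the threshold (adjusted p = 0.0684), although it passed with the authors' values (0.0355) and with a floor in place of the background correction (0.0343). GEMIN4 and GEMIN6 were chosen for a fall into which their values at both temperatures enter. Their tests between the lines are therefore not free of that choice. The calls of GEMIN2, GEMIN5 and GEMIN6 at 46 °C held under each alternative run, with adjusted p of at most 0.0374. STRAP (0.19 ± 0.13, adjusted p = 0.364) and GEMIN8 (0.14 ± 0.12, adjusted p = 0.502) did not pass here.

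**Figure D4:**
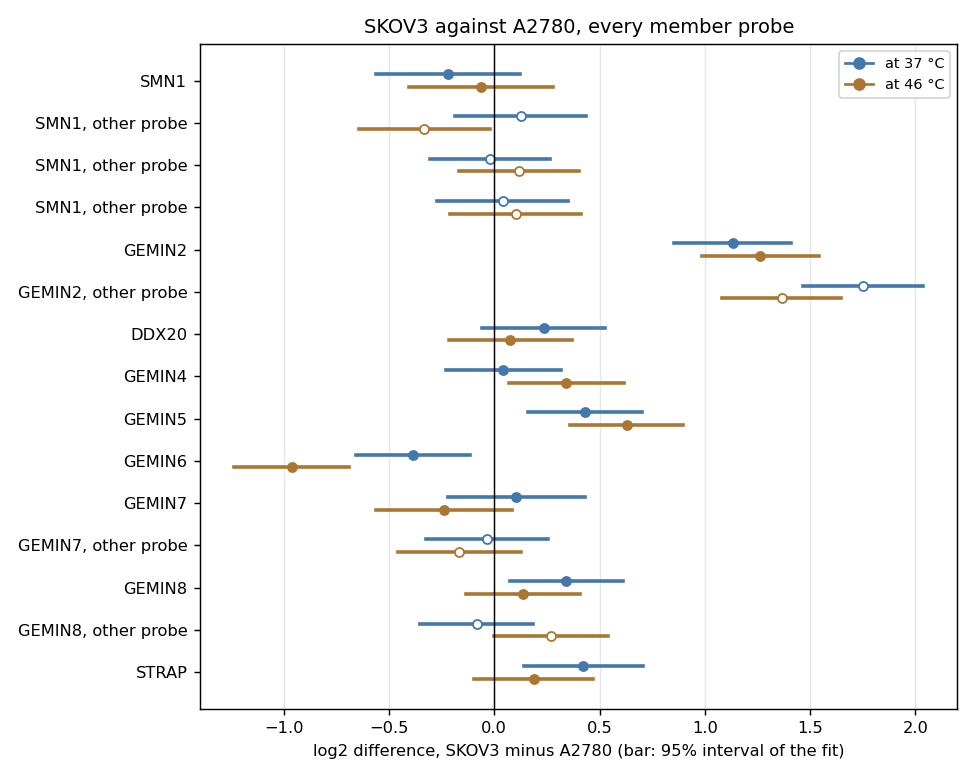
Difference in log2 intensity, SKOV3 minus A2780 (x axis), at each of the 15 member probes (y axis) at 37 °C (blue) and at 46 °C (brown), with the 95% interval of the fit as a bar and open circles for probes other than a gene's brightest. Both GEMIN2 probes lie above 1 at both temperatures, and GEMIN6 lies below 0 at both (-0.39 and -0.96).

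The genes most like GEMIN4 and GEMIN6 over the 8 arrays were sought among 1506 genes whose group means spanned at least 1 log2 unit. Genes known only by a LOC, LINC, open reading frame or clone name were passed over. By Pearson r of the normalized log2 values, as a description over arrays that share 4 groups, GEMIN4 was most like PPRC1 (0.982), D2HGDH (0.973), TMEM60 (0.969), RPUSD2 (0.964) and ID3 (0.957). PPRC1, a PGC-1-related coactivator, changed by -1.07 in A2780 and -0.61 in SKOV3, and RPUSD2, of the pseudouridine synthase family, by -1.06 and -1.03. GEMIN6 was most like MRFAP1L1 (0.995), MRPS25 (0.992), ZNF121 (0.979), WDR20 (0.978) and PCDHB2 (0.977). MRFAP1L1 changed by -0.77 and -1.01, and MRPS25, a mitochondrial ribosomal protein gene, by -0.49 and -0.86. No gene was in both lists. Negative changes at 46 °C in these 10 genes follow from the way they were picked.

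Partner genes of snRNP assembly were read from 9 lists of 76 genes, of which 74 were tested. The lists were chosen with earlier results of these data known, and the tests of single genes below carry that limit. In A2780, 2 rose and 2 fell at 46 °C, where 2.23% of all genes rose and 2.29% fell. In SKOV3, 1 rose and 2 fell, where 1.50% and 1.68% of all genes did. These counts are near those shares. The median change of the 74 was -0.03 and -0.04, against -0.01 and -0.02 over all genes. Between the lines, 10 were higher and 10 lower in SKOV3 at 37 °C, and 7 and 8 at 46 °C. Over all genes 15.6% and 13.8% were called at 37 °C and 12.3% and 11.8% at 46 °C, so these counts are not above the background. None of the 74 passed the test of a difference in response between the lines (limma, 0.0987% of all genes called).

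USPL1, a Cajal body protein needed for snRNA transcription, rose most. Its values were 9.11 and 8.81 at 37 °C and 10.68 and 10.76 at 46 °C in A2780, a rise of 1.76 ± 0.14 (adjusted p = 2.25e-06). In SKOV3 they were 9.07 and 8.88 against 10.31 and 10.41, a rise of 1.38 ± 0.14 (adjusted p = 3.89e-05). Both rises held under every alternative run. Of the 9 Cajal body and gem genes, the other 8 did not pass the test in either line. COIL, which encodes the coilin that marks these bodies, gave -0.12 ± 0.13 and -0.07 ± 0.13.

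Among the snRNA transcription and processing genes, SNAPC4, a subunit of the factor that binds snRNA promoters, fell by 0.61 (SE 0.13, adjusted p = 0.0195) in A2780 and by 0.54 (SE 0.13, adjusted p = 0.0445) in SKOV3. It was the only call among 4 tested SNAPc genes. INTS5, of the Integrator that trims snRNA ends, fell by 0.66 (SE 0.13, adjusted p = 0.00822) and by 0.56 (SE 0.13, adjusted p = 0.0289), the only call among 13 Integrator genes. These calls depended on the arrays and on the processing. Leaving out 1 array ended them, in A2780 without either hyperthermia array for INTS5 (0.105 and 0.0558) and without any of the 4 A2780 arrays for SNAPC4 (0.0569 to 0.154). In SKOV3 both were lost without control 1, control 2 or hyperthermia 2, and without either A2780 hyperthermia array (0.0547 to 0.308). Both SKOV3 calls were also lost with median scaling, without normalization, with offset 16 and with only the arrays compared (0.063 to 0.377). SNAPC4 also lost its SKOV3 call with a trended and robust prior (0.0552) and its A2780 call with offset 16 (0.0686).

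Of 8 Sm core genes, the proteins that the complex loads, SNRPE rose in A2780 by 0.87 ± 0.18 (adjusted p = 0.0106), from 9.46 and 8.91 to 10.01 and 10.10. Its change in SKOV3 was 0.12 ± 0.18. The dimmer SNRPE probe gave 0.07 in A2780, where its values were 6.39 to 6.51. The lowest values above background on those arrays were 6.37 to 6.48, so this probe, and a mean that includes it, says little about a change. The A2780 call was lost without control 2 (0.132), hyperthermia 1 (0.0836) or hyperthermia 2 (0.115). It was also lost with the mean of both probes (0.47, adjusted p = 0.0567), with median scaling (0.36, adjusted p = 0.119) and without normalization (0.25, adjusted p = 0.314). No gene passed in either line among 13 Sm-like LSM genes, 5 snRNP-specific genes, 8 minor spliceosome genes, 6 methylosome genes and 8 genes of snRNA cap, export and import.

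**Figure D5:**
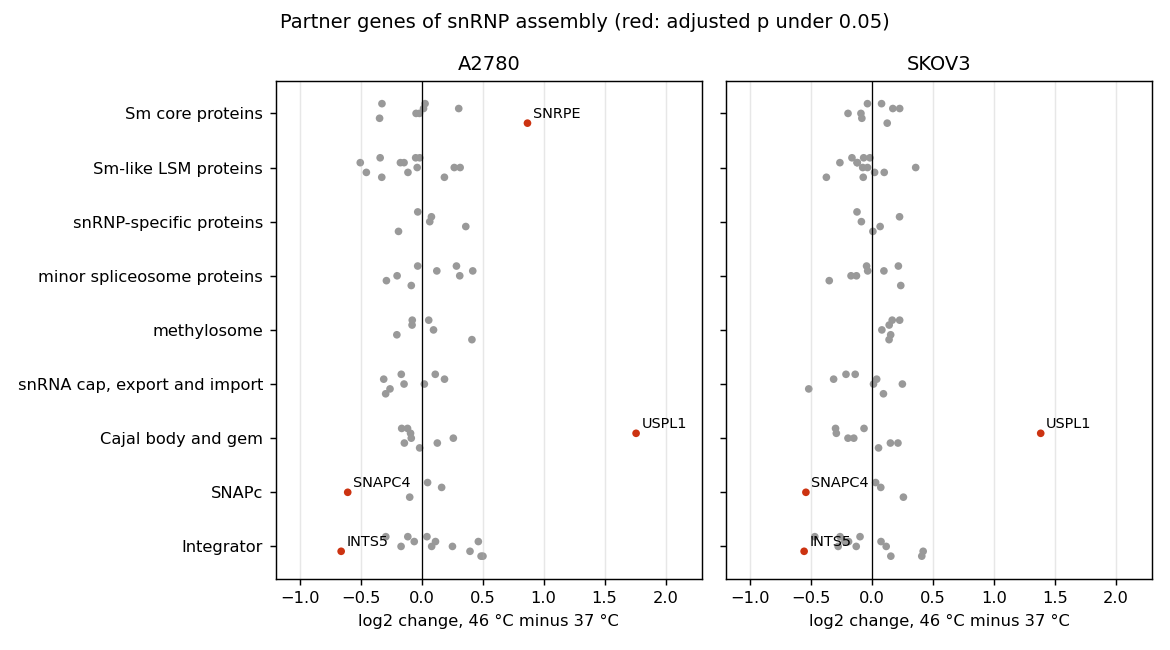
Log2 change at 46 °C (x axis) of the 74 tested partner genes by list (y axis), in A2780 (left) and SKOV3 (right), with genes past the test in red and named and the others in grey. USPL1 rose in both lines (1.76 and 1.38) and SNAPC4 and INTS5 lie below 0 in both.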

How the data were processed

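Per the labels, the authors exported probe signals with BeadStudio, whose version is not given. The deposited linear intensity table of 47231 probes is neither normalized between arrays nor background-subtracted and has no detection p-values. A deposited table of log2 values for the same arrays, whose making is not given in the sources used here, served as an alternative. Its 8 columns share a median of 7.003 and differ by at most 0.0246 from the log2 signals once those are quantile-normalized, so it is not centred by gene.

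Intensities were corrected with normexp (limma 3.58.1, R 4.3.3, offset 50), quantile-normalized and put on the log2 scale. This gives every array the same distribution, so a shift of most genes in one direction would not be seen. Probes were named from the platform annotation: 30113 carried 1 symbol, 8 several and 17110 were not listed. Of probes with a mean above the 40th percentile (6.16), the brightest stood for its gene, which left 14189 genes. A model with 4 group means was fitted to all 8 arrays with limma (4 residual and 9.39 prior degrees of freedom), with two-sided tests and Benjamini-Hochberg adjustment over the 14189 genes at 0.05. Other probes of a member were read from the same fit over all 47231 probes. An array's background limit was the mode of its log2 signals plus the spread below that mode, taken at the 99th percentile of a normal curve. The number of arrays limits the precision.

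Members, lists and tests were chosen with earlier results of these data known. Named genes were the members, SMN2, up to 4 called genes of a partner list, the 5 genes most like GEMIN4 and GEMIN6, and label checks. The replicate numbers are not stated to mark pairs: deviations of equally numbered samples correlated between -0.256 and 0.294, and no block was used. Slides are not given in the files and were not used.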

Additional observations from a re-analysis of the deposited data

How the results depend on the processing

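Median scaling moved the median of all genes to -0.28 in A2780 at 46 °C and no between-array normalization to -0.39. Both then called 4 members lower in A2780, adding SMN1 and GEMIN5. GEMIN4 minus that median was -1.55 under both, SMN1 minus it was -0.43 and GEMIN5 minus it was -0.41. In A2780 27 and 37 partner genes were called under these settings, where 4584 and 5311 of all 14183 genes were called (4395 and 5183 lower). In SKOV3 1 partner gene was called under each, where 265 and 192 of all genes were. A normexp offset of 16 and only the arrays compared also gave 1 each in SKOV3. There 304 of 14179 and 339 of 14189 genes were called. The 37 °C difference between the lines reversed under median scaling and without normalization for GEMIN4 (-0.45 and -0.57), GEMIN5 (-0.11 and -0.23) and STRAP (-0.035 and -0.16). Under both settings GEMIN4 passed as lower in SKOV3. Without normalization GEMIN2 missed the threshold at 37 °C (0.45, adjusted p = 0.0835). Leaving out each array gave 1 to 4 members called between the lines at 37 °C, 1 to 8 partner genes in A2780 and 1 to 3 in SKOV3. It gave 3 members between the lines at 46 °C each time. The counts of members called for heat rest on GEMIN4 and GEMIN6, which were chosen for that change, so they say nothing about stability. With 1 array left in a group, that array is assumed to vary like the others. Over the 20 alternatives the change of GEMIN4 lay between -1.94 and -1.33 (A2780) or -1.18 and -1.01 (SKOV3), and that of GEMIN6 between -1.39 and -0.84 or -1.54 and -1.35. With the replicate number as a block, the counts of members called between the lines stayed at 4 and 3, and those of partner genes for heat at 4 and 3. Equally numbered samples did not deviate together in every pair of groups. The cause of these shifts was not tested.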
